A study of Mus musculus with 6 samples.

Results

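The colony-stimulating factors are secreted proteins that set how many myeloid cells form, survive and mature, and each signals through its own receptor. Described here are the 9 mouse genes of this axis: the CSF1 receptor gene Csf1r and its ligands Csf1 and Il34, the GM-CSF gene Csf2 and its receptor chains Csf2ra, Csf2rb and Csf2rb2, and the G-CSF gene Csf3 and its receptor Csf3r. They were taken by symbol from a table of 43432 genes, in which all 9 have a row. RNA came from macrophages of the mammary glands of female MMTV-PyMT mice of the FVB/N strain. In these mice a mouse mammary tumour virus promoter, active in mammary epithelium, drives the polyomavirus middle T oncogene, and mammary tumours form. The groups were macrophages at 11 weeks (3 libraries) and macrophages at 8 weeks (3 libraries), and both carried the transgene. The cells had been sorted as positive for CD45, a surface protein of leukocytes, for MHC class II, which presents antigen, and for CD14, a co-receptor for lipopolysaccharide. Samples are numbered within each age, but no label says that each is a separate mouse. A p-value here therefore measures the spread between samples, which may be technical.

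CSF1R is a receptor tyrosine kinase of the mononuclear phagocyte lineage, and most tissue macrophages need its signal to survive. It binds CSF1, made mainly by stromal, endothelial and epithelial cells, and IL-34, best known from skin and brain. The GM-CSF receptor is built differently: a ligand-specific alpha chain, the product of Csf2ra, pairs with a beta chain from Csf2rb that the IL-3 and IL-5 receptors share. Mice carry a second beta chain gene, Csf2rb2, whose product serves the IL-3 receptor alone. The G-CSF receptor is a single-chain receptor best known for driving neutrophil production. In mouse mammary tumours CSF1 is known as a factor that recruits and maintains macrophages.

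The 2 beta chain genes lie near each other on chromosome 15 and are close copies, which limits how well reads can be assigned to one or the other. Csf2rb (ENSMUSG00000071713) lies at chr15:78325990-78351000 on the forward strand and Csf2rb2 (ENSMUSG00000071714) at chr15:78282517-78305603 on the reverse strand of GRCm38. Over 2631 aligned coding bases of their annotated transcripts, 126 differed, an identity of 95.2%. Of all 50-base windows of the Csf2rb coding sequence, 26.3% also stood unchanged in the Csf2rb2 transcript, and of all 100-base windows 11.0% did. The most different window of 60 coding bases is shown first, because it is where a read can tell the copies apart. It lies at chr15:78338893-78338952 for Csf2rb and at chr15:78294379-78294438 for Csf2rb2, and capitals mark the 13 bases that differ. The third line is a 60-base stretch that both genes share without a difference (chr15:78348577-78348636 and chr15:78284812-78284871), inside an identical run of 242 bases, from which a read could belong to either gene.
Csf2rb: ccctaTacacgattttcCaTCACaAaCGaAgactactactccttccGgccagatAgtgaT
Csf2rb2: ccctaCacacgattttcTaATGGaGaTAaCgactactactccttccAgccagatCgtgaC
both genes: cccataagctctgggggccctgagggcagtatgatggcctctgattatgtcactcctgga
The sequences are those of GENCODE transcripts on GRCm38, each read 5′ to 3′ along its gene. How the authors' counting treated reads that match both genes is not stated in the sources, so the levels of Csf2rb and Csf2rb2 are uncertain to that extent.

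The libraries held 38784434 to 75004880 recovered reads, and 17385 to 19722 genes had at least 1 read. Mitochondrially encoded RNA took 48.3% to 52.7% of the normalized counts at 11 weeks, against 38.5% to 56.7% at 8 weeks. All 17 macrophage core genes were detected, with a mean log2(normalized count + 1) of 14.75 ± 0.12 at 11 weeks and 14.67 ± 0.08 at 8 weeks (SD, n = 3 each). Transcripts of other cells were present too. The summed mammary epithelial markers (14 genes, none at 0 throughout) ran from 26898 to 51044 normalized counts at 11 weeks and from 9685 to 13178 at 8 weeks. The summed fibroblast and pericyte markers (10 genes, none at 0 throughout) ran from 2975 to 3969 at 11 weeks and from 1186 to 1898 at 8 weeks, and the endothelial markers (7 genes, none at 0 throughout) from 682 to 1244 at 11 weeks and from 419.8 to 543 at 8 weeks. Of the 7 endothelial genes, 4 had a positive and 3 a negative log2 fold change (median 0.10). The 4 include Cldn5, which was at 0 in every library of 1 age. The neutrophil markers summed to between 6694 and 10374.5 at 11 weeks and between 1428 and 2496.5 at 8 weeks. Lcn2, which epithelium also makes, gave 2598 to 6617 of these counts at 11 weeks and 923 to 1172 at 8 weeks. Dendritic cell markers (8 genes) summed to less at 11 weeks, 4053 to 5139 normalized counts, than at 8 weeks, 5434 to 6878. Gene by gene they were split, with 4 positive and 4 negative log2 fold changes (median 0.04). The ages did not overlap in 3 of these genes, all lower at 11 weeks, where 5.12% of all tested genes were so. An unadjusted limma p under 0.05 was reached by 1, also lower (background 3.27%). The sums of T cell, NK cell, B cell, and mast cell, basophil and eosinophil markers overlapped between the ages. A sum follows the most abundant genes of its list. Of 12 tested T cell and innate lymphoid genes, 7 had a positive and 5 a negative log2 fold change (median 1.08). An unadjusted limma p under 0.05 was reached by 4 with a higher level (background 4.76%) and 0 with a lower one (background 3.27%). Of all listed genes, only the milk protein gene Csn3 and Lcn2 passed the adjusted test, and no gene of the table passed it when the first or the third 11-week library, or the first 8-week library, was left out.

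None of the 9 genes passed an adjusted p of 0.05 between the ages, where 0.0507% of all 21675 tested genes did (limma with Benjamini-Hochberg adjustment over all tested genes). None did with edgeR on the recovered reads either, where 0.0646% of all tested genes did. DESeq2 on the recovered reads gave Il34 and Csf2 no adjusted p. None of the other members passed with it, where 2.63% of the 15874 genes that it adjusted did. Unadjusted limma p lay under 0.05 for Csf1r and Csf1, against 8.03% of all tested genes. This depended on the test. On the recovered reads the unadjusted p of Csf1r and Csf1 was 0.112 and 0.156 with edgeR. It was 0.089 and 0.158 with DESeq2, and 0.00798 and 0.0251 with limma-voom. The values of the ages did not overlap for 1 gene that was higher at 11 weeks, Csf3, where 6.81% of all tested genes were so, and for 1 that was lower, Csf1r, where 5.12% were. Il34 and Csf2 entered the test only through the 11-week libraries. Of the 7 genes that reached the minimum level at both ages, 4 had a positive and 3 a negative log2 fold change. Their median was 0.10, beside a median of 0.05 over all tested genes.

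**Figure D1:**
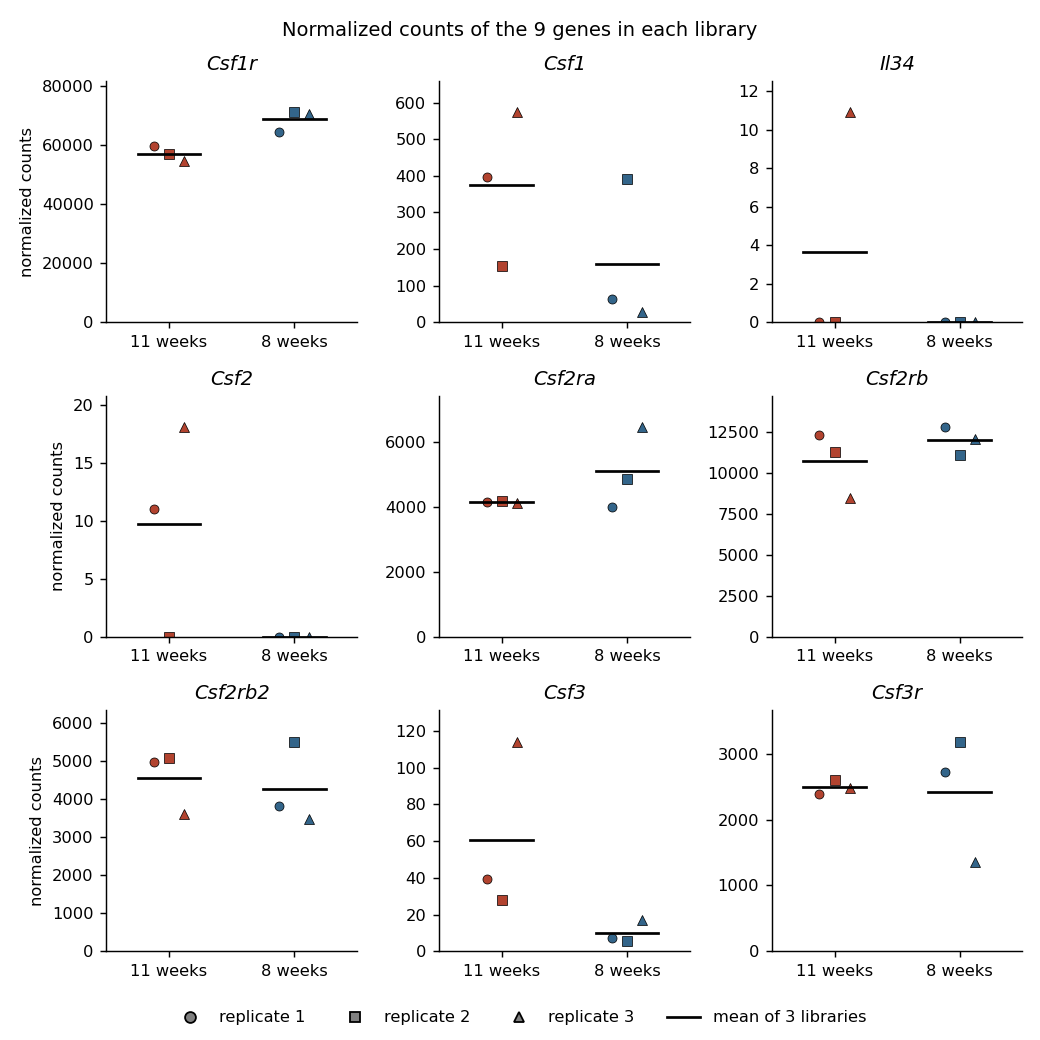
Normalized counts (vertical axes, each starting at 0) of the 9 genes in the 3 libraries at 11 weeks, left, and the 3 at 8 weeks, right. Points are single libraries, with a shape for each replicate number, and lines are means of 3 libraries. Csf1r lies lower in every 11-week library and Csf3 higher, and in the other genes the ages overlap or share values of 0.

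Csf1r (ENSMUSG00000024621; chr18:61105572-61132149, forward strand) had the highest level per length of the 9 genes. It had 59568, 56982 and 54613 normalized counts in 11-week replicates 1, 2 and 3, against 64409.9, 70989.5 and 70573 in 8-week replicates 1, 2 and 3. Every 11-week library lay below every 8-week library. The means were 57054 ± 2478 at 11 weeks and 68658 ± 3684 at 8 weeks (SD, n = 3 each). The log2 fold change was -0.27 ± 0.12 (SE; limma adjusted p = 0.609), so the difference did not pass the test over all genes. It kept its sign in all 19 alternative settings, with log2 fold changes between -0.35 and -0.23 and adjusted p between 0.344 and 0.861. The authors' deposited table gives Csf1r a log2 fold change of -0.258, with a p-value of 0.077 and an adjusted p of 0.494.

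The share that Csf1r took of all counts outside the mitochondrial genes was 0.211%, 0.204% and 0.200% in the 11-week libraries. It was 0.242%, 0.255% and 0.254% in the 8-week libraries. These shares did not overlap, and they rest on the same Csf1r values. In bulk RNA of sorted cells, fewer cells of a type and less RNA per cell cannot be told apart. Of the marker sums given above, the epithelial, fibroblast, endothelial and neutrophil ones were higher in every 11-week library. The dendritic cell sum was lower, as Csf1r was, and the other sums overlapped. Single genes of the endothelial and dendritic cell lists were split in direction. The part of all these transcripts in the Csf1r share was not tested. Csf1r overlaps Hmgxb3, a gene on the opposite strand, over 871 bases at its end. Hmgxb3 had 326 to 1030.0 normalized counts per library, and the part of its reads in the Csf1r values was not tested.

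Within each library Csf1r was also set against the 17 macrophage core genes, which do not include it. The log2 difference from their mean was 1.18, 0.90 and 1.06 in the 11-week libraries and 1.36, 1.36 and 1.47 in the 8-week libraries. No 11-week library reached the 8-week values, though the same Csf1r values enter as above, so this is no separate reading. The means were 1.05 ± 0.14 at 11 weeks and 1.40 ± 0.07 at 8 weeks (SD, n = 3 each), a difference of -0.35. The exact two-sided permutation test gave p = 0.1, the smallest that 3 libraries against 3 allow, and 0.4 after adjustment over the 4 within-library ratios tested. Leaving out 1 library at a time gave differences between -0.41 and -0.27, and leaving Lyz2, Cd14, Itgam and Ptprc out of the core list gave -0.40.

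The core genes had 11 positive and 6 negative log2 fold changes with a median of 0.04, and none passed the adjusted test. Cd14, a sort antigen, had 33730 ± 3977 normalized counts at 11 weeks, against 21806 ± 2033 at 8 weeks (SD, n = 3 each; limma adjusted p = 0.198). Lgmn, which encodes the lysosomal protease legumain, had 23144 ± 2358 at 11 weeks and 16699 ± 925 at 8 weeks (limma adjusted p = 0.415). Ptprc, which encodes CD45, had 26153 ± 2707 at 11 weeks and 34894 ± 1981 at 8 weeks (SD, n = 3 each; limma adjusted p = 0.434). In each of these 3 genes the ages did not overlap, with Ptprc on the same side as Csf1r. Of all 17 core genes, the ages did not overlap in 4 that were higher, Fcgr1 among them, and 1 that was lower. Of all tested genes 6.81% and 5.12% were so. Cd68, a lysosomal membrane protein gene of macrophages, overlapped at 37894 ± 3644 and 36919 ± 5364, as did Itgam, which encodes CD11b, at 33864 ± 15071 and 45513 ± 4045 (11 weeks and 8 weeks; limma adjusted p = 0.948 and 0.658).

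Of the ligands of CSF1R, Csf1 (ENSMUSG00000014599; chr3:107741048-107760469, reverse strand) had the wider scatter. It had 398, 154 and 574 normalized counts in 11-week replicates 1, 2 and 3, against 63.3, 391 and 26.5 in 8-week replicates 1, 2 and 3. The libraries overlapped, since 8-week replicate 2 was nearly as high as 11-week replicate 1 and above 11-week replicate 2. The means were 375 ± 211 at 11 weeks and 160 ± 200 at 8 weeks (SD, n = 3 each). The log2 fold change of 1.89 ± 0.86 (SE, with limma's adjusted p = 0.607) did not pass. Its size rested on single libraries, at 1.05 without 8-week replicate 3 and 2.97 without 8-week replicate 2, and on the test, at 1.22 with edgeR on the recovered reads. The authors' deposited table has a log2 fold change of 0.567, with an adjusted p of 0.637, where DESeq2 on the recovered reads gave 1.23.

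The libraries behind these values held 433, 153 and 633 recovered reads of Csf1 at 11 weeks and 71, 282 and 31 at 8 weeks. The 8-week library with the most Csf1, replicate 2, had the highest fibroblast and pericyte sum of its age, 1898 normalized counts, the lowest endothelial sum, 419.8, and an epithelial sum of 10615, inside the range of its age. Whether these transcripts and Csf1 come from the same cells was not tested. Relative to Csf1r in the same library, the log2 level of Csf1 was -7.22, -8.52 and -6.57 at 11 weeks and -9.97, -7.50 and -11.33 at 8 weeks. The means of -7.44 ± 0.99 and -9.60 ± 1.94 (11 weeks and 8 weeks; SD, n = 3 each) differed by 2.16, with overlap between the ages (exact permutation p = 0.2, adjusted p = 0.4).

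Il34 (ENSMUSG00000031750; chr8:110741829-110805924, reverse strand) was all but undetected. It had 0, 0 and 10.9 normalized counts in the 11-week libraries and 0 in each of the 3 libraries at 8 weeks. Only 11-week replicate 3 held reads of it, 12 in all. A count of 0 allows up to 3 reads, which is 2.56 to 4.16 normalized counts depending on the library, and this limit covers counting error only. No fold change is given, and a difference between the ages was not detectable at this depth. Of 4 genes listed as partners of IL-34 or of the CSF1R ligands, none passed the test. Ptprz1 of this list was at 0 in every library of 1 age, so its direction is not counted. Of the others, Trem2 and Furin had a positive and Sdc1 a negative log2 fold change. Among them Sdc1, which encodes the heparan sulfate proteoglycan syndecan 1, had 555 ± 475 normalized counts at 11 weeks, against 578 ± 308 at 8 weeks (SD, n = 3 each; limma adjusted p = 0.886). Trem2, a lipid-sensing receptor of macrophages, had 2703 ± 408 at 11 weeks and 2368 ± 685 at 8 weeks (limma adjusted p = 0.835).

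Csf2 (ENSMUSG00000018916; chr11:54247271-54249667, reverse strand), the GM-CSF gene, was as sparse. It had 11.0, 0 and 18.1 normalized counts in the 11-week libraries and 0 in each of the 3 libraries at 8 weeks. The reads were 12 and 20 in 11-week replicates 1 and 3 and none elsewhere, so the ages shared values of 0 and no fold change is given. An antisense gene covers most of Csf2 and was at 0 in all 6 libraries.

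**Figure D2:**
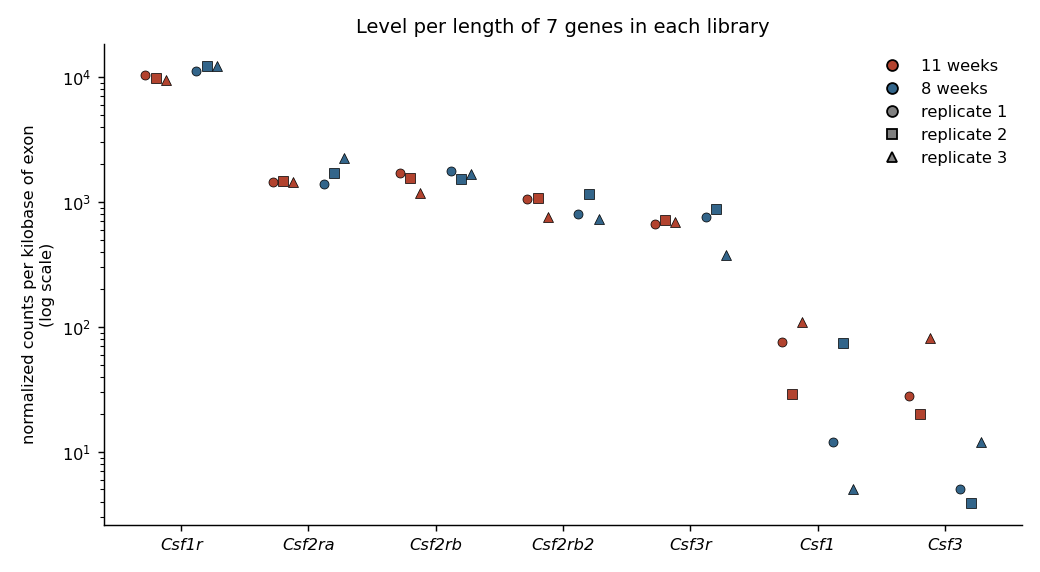
Normalized counts per kilobase of annotated exon (vertical axis, log scale) of the 7 genes that reached the minimum level at both ages, with 11-week libraries to the left of 8-week libraries. Points are single libraries with a shape for each replicate number. Csf1r lies highest in every library, the 4 GM-CSF and G-CSF receptor chain genes follow, and the ligand genes Csf1 and Csf3 lie lowest and scatter most.

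The receptor genes of the GM-CSF branch were well expressed. Csf2ra (ENSMUSG00000059326; chr19:61224402-61228418, reverse strand) had 4167, 4203 and 4143 normalized counts in 11-week replicates 1, 2 and 3, against 4013, 4885 and 6473 in 8-week replicates 1, 2 and 3. The 11-week libraries lay close together, and the 8-week libraries spread around and above them. The means were 4171 ± 30.1 at 11 weeks and 5124 ± 1247 at 8 weeks (SD, n = 3 each), and the log2 fold change was -0.27 ± 0.22 (SE, with limma's adjusted p = 0.802). Without 8-week replicate 3, the highest library, the log2 fold change was -0.09.

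Csf2rb, which encodes the shared beta chain, had 12374, 11328 and 8516 normalized counts at 11 weeks, against 12829, 11145 and 12116 at 8 weeks. The ages overlapped, and 11-week replicate 3 was the lowest library. The means were 10739 ± 1995 and 12030.1 ± 845 (11 weeks and 8 weeks; SD, n = 3 each), and the log2 fold change was -0.18 ± 0.18 (SE, with limma's adjusted p = 0.825), or -0.02 without 11-week replicate 3. Csf2rb2, which encodes the IL-3 receptor beta chain, had 4979, 5085 and 3605 normalized counts at 11 weeks, against 3821, 5518 and 3486 at 8 weeks. Its lowest 11-week library was again replicate 3, while its highest library of all was 8-week replicate 2. The means were 4556 ± 826 and 4275 ± 1090 (11 weeks and 8 weeks; SD, n = 3 each), and the log2 fold change was 0.10 ± 0.24 (SE, with limma's adjusted p = 0.918), turning to -0.03 without 8-week replicate 3.

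The log2 ratio of Csf2rb2 to Csf2rb within a library was -1.31, -1.16 and -1.24 at 11 weeks and -1.75, -1.01 and -1.80 at 8 weeks. The 8-week libraries lay on both sides of the 11-week ones, so the copies were not shown to move apart (means -1.24 ± 0.08 and -1.52 ± 0.44, 11 weeks and 8 weeks, SD, n = 3 each; exact permutation p = 0.4, adjusted p = 0.533). The ratio of Csf2ra to Csf2rb averaged -1.35 ± 0.28 at 11 weeks and -1.26 ± 0.39 at 8 weeks (log2; SD, n = 3 each), and overlapped as well (exact permutation p = 0.8, adjusted p = 0.8).

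**Figure D3:**
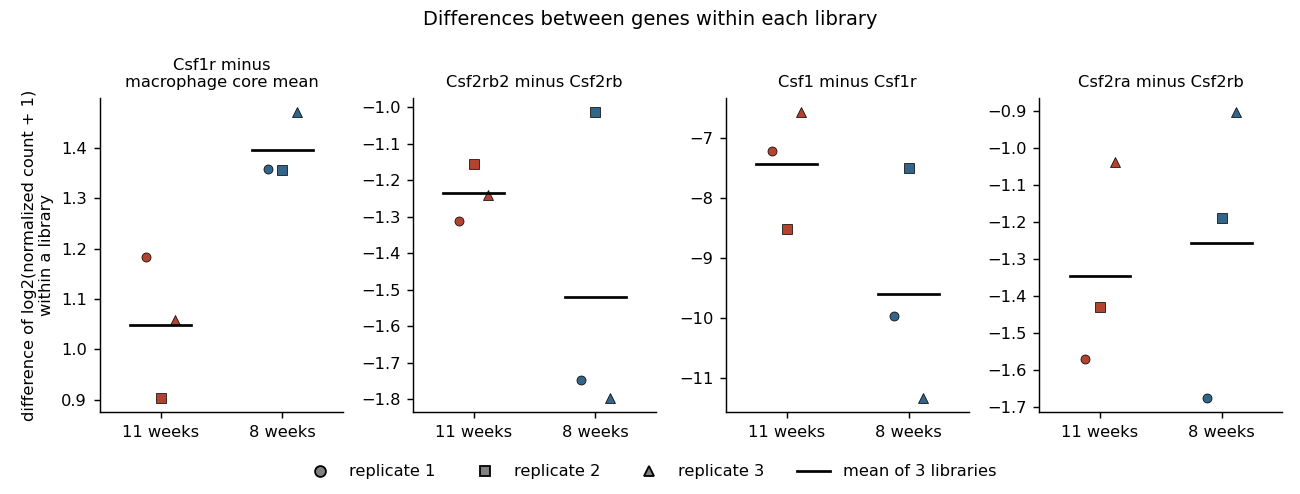
Differences between genes within each library on the log2(normalized count + 1) scale (vertical axes, which do not start at 0), with 11 weeks left of 8 weeks. Points are single libraries and lines are means of 3. In Csf1r against the macrophage core mean the ages do not overlap, at 0.90 to 1.18 for 11 weeks and 1.36 to 1.47 for 8 weeks, and in the other 3 panels they do.

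In the G-CSF branch the ligand gene was low and the receptor gene moderate. Csf3 (ENSMUSG00000038067; chr11:98701263-98703629, forward strand) had 39.5, 28.2 and 114 normalized counts in 11-week replicates 1, 2 and 3, against 7.1, 5.5 and 17.1 in 8-week replicates 1, 2 and 3. Every 11-week library lay above every 8-week library, with 11-week replicate 3 well above the others. These values stand on few reads, 43, 28 and 126 at 11 weeks and 8, 4 and 20 at 8 weeks. The means were 60.6 ± 46.7 and 9.9 ± 6.29 (11 weeks and 8 weeks; SD, n = 3 each). The log2 fold change of 2.39 ± 1.20 (SE, with limma's adjusted p = 0.652) did not pass, and leaving out 1 library at a time gave 1.81 to 2.83. DESeq2 on the recovered reads gave an adjusted p of 0.203, the lowest of the 19 alternatives, which reached up to 0.815. The authors' deposited table gives a log2 fold change of 0.966, with a p-value of 0.017 and an adjusted p of 0.241. With DESeq2 on the recovered reads the log2 fold change was 2.60.

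Csf3r (ENSMUSG00000028859; chr4:126024550-126044440, forward strand) overlapped between the ages, unlike its ligand. It had 2384, 2604 and 2481 normalized counts at 11 weeks, against 2730.2, 3184 and 1359 at 8 weeks. The 8-week libraries lay on both sides of the 11-week ones, with 8-week replicate 3 lowest. The means were 2490 ± 110 at 11 weeks and 2424 ± 950 at 8 weeks (SD, n = 3 each), and the log2 fold change was 0.13 ± 0.30 (SE, with limma's adjusted p = 0.920). Without 8-week replicate 3 it turned to -0.24.

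Neutrophils are the best-known carriers of the G-CSF receptor, and their summed marker genes were higher at 11 weeks. Of 12 markers 9 were tested and 8 of these had a positive log2 fold change. Lcn2, which encodes the iron-chelating protein lipocalin 2 and is also made by epithelium, rose, with 4742 ± 2023 normalized counts at 11 weeks, against 1073 ± 132 at 8 weeks (SD, n = 3 each; limma adjusted p = 0.0188). Elane, the neutrophil elastase gene, was at 0 in all 6 libraries, and Ly6g and Camp were below the minimum level. Csf3r itself overlapped between the ages while the neutrophil sum did not. The library lowest in Csf3r, 8-week replicate 3, also had the lowest neutrophil sum, 1428 normalized counts. The libraries highest in Csf3r, 8-week replicates 2 and 1, had neutrophil sums of 2496.5 and 1751, below every 11-week library. The part of neutrophil RNA in the Csf3 and Csf3r values was not tested.

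**Figure D4:**
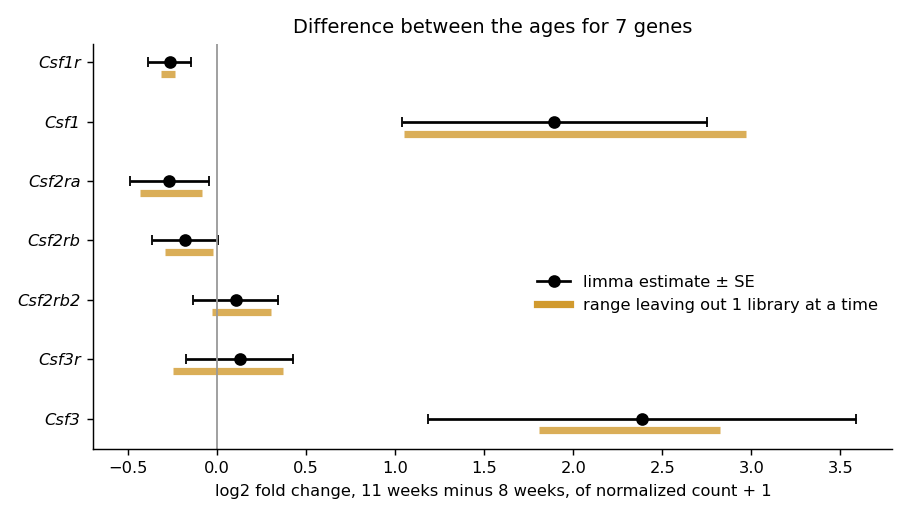
Log2 fold changes, 11 weeks minus 8 weeks, of log2(normalized count + 1) for the 7 genes that reached the minimum level at both ages (horizontal axis). Black points and bars are the limma estimate and its SE, and ochre bars span the estimates with 1 library left out at a time. Csf1 and Csf3 have the widest bars, and the ochre bars of Csf2rb2 and Csf3r cross 0.

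Per kilobase of exon, the 9 genes spanned a wide range. Csf1r averaged 9881 ± 429 normalized counts per kilobase at 11 weeks and 11891 ± 638 at 8 weeks (SD, n = 3 each, here and below), which placed it between rank 61 and rank 98 of 21855 protein-coding genes in single libraries. Its level per length was 5.42 to 7.98 times that of Csf2ra in the same library, with a median of 6.92. Csf2ra came next, at 1453 ± 10.5 per kilobase at 11 weeks and 1785 ± 434 at 8 weeks, with Csf2rb, at 1476 ± 274 at 11 weeks and 1653 ± 116 at 8 weeks. These 2 could not be ordered, since the ratio of Csf2rb to Csf2ra within a library ran from 0.738 to 1.26. Csf2rb2 followed with 961 ± 174 at 11 weeks and 902 ± 229.9 at 8 weeks. Csf2rb lay above it in every library, by a median of 1.58 times and a range of 1.32 to 2.26 times. With the length of the longest coding transcript in place of all exons, a choice made after seeing the data, that median was 2.34. The median of Csf1r over Csf2ra was then 5.48, with a range of 4.29 to 6.31.

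Csf3r came below the beta chains, with 689.8 ± 30.5 normalized counts per kilobase at 11 weeks and 672 ± 263 at 8 weeks. Csf2rb2 exceeded it in all 6 libraries, though by as little as 1.07 times. Csf1 had 71.1 ± 39.9 per kilobase at 11 weeks and 30.3 ± 38.0 at 8 weeks, so that Csf3r exceeded it 6.33 to 75.04 times. Csf3 had 42.9 ± 33.1 per kilobase at 11 weeks and 7.01 ± 4.45 at 8 weeks, and could not be ordered against Csf1, with a ratio of Csf1 to Csf3 of 0.415 to 19.01 within a library. Per kilobase, Csf1r stood 87.1 to 2436 times above Csf1, with a median of 252.

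Of 20 genes listed for the signalling of CSF1R inside the cell, none passed the adjusted test, 1 had an unadjusted p under 0.05 and a higher level (background 4.76%), and 15 had a negative log2 fold change. Their median was -0.18, beside 0.05 for all tested genes. The 1 gene was Fcgr1, with 4145 ± 741 normalized counts at 11 weeks, against 2556 ± 872 at 8 weeks (SD, n = 3 each; limma adjusted p = 0.481). Fcgr1 encodes the high-affinity IgG receptor and is a macrophage marker rather than a part of the CSF1R cascade. The kinase gene Syk had 9486 ± 1339 normalized counts at 11 weeks, against 12123 ± 378 at 8 weeks (SD, n = 3 each; limma adjusted p = 0.637), and its ages did not overlap. Sla, which encodes an adaptor that dampens receptor tyrosine kinase signals, overlapped at 4170 ± 1334 and 5686 ± 839 (11 weeks and 8 weeks; limma adjusted p = 0.658).

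Of 11 genes for transcription factors known to act in macrophages, several of them at Csf1r, none had an unadjusted p under 0.05, and 4 had a positive and 7 a negative log2 fold change (median -0.05). Mitf, a basic helix-loop-helix factor of osteoclasts and macrophages, had 2050 ± 153 normalized counts at 11 weeks, against 1524 ± 340 at 8 weeks (SD, n = 3 each; limma adjusted p = 0.721), with no overlap. Runx1, which encodes a factor that binds Csf1r regulatory DNA, overlapped at 6751 ± 1576 and 7847 ± 580 (11 weeks and 8 weeks; limma adjusted p = 0.805). The other class III receptor tyrosine kinases and their ligands, the relatives of CSF1R, numbered 9. None passed the adjusted test, 2 had an unadjusted p under 0.05 and both were higher (background 4.76%), and 8 had a positive log2 fold change (median 0.46), beside 52.8% of all tested genes. Pdgfra and Pdgfrb of this list are also among the fibroblast and pericyte markers, whose sum was higher in every 11-week library, and Flt3 is also a dendritic cell marker. Kitl, which encodes stem cell factor, had 1368 ± 52.2 normalized counts at 11 weeks, against 721 ± 256 at 8 weeks (SD, n = 3 each; limma adjusted p = 0.423), with no overlap. Kit, its receptor, had 653, 109 and 473 at 11 weeks and 182, 105 and 17.1 at 8 weeks, with overlap (limma adjusted p = 0.542).

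**Figure D5:**
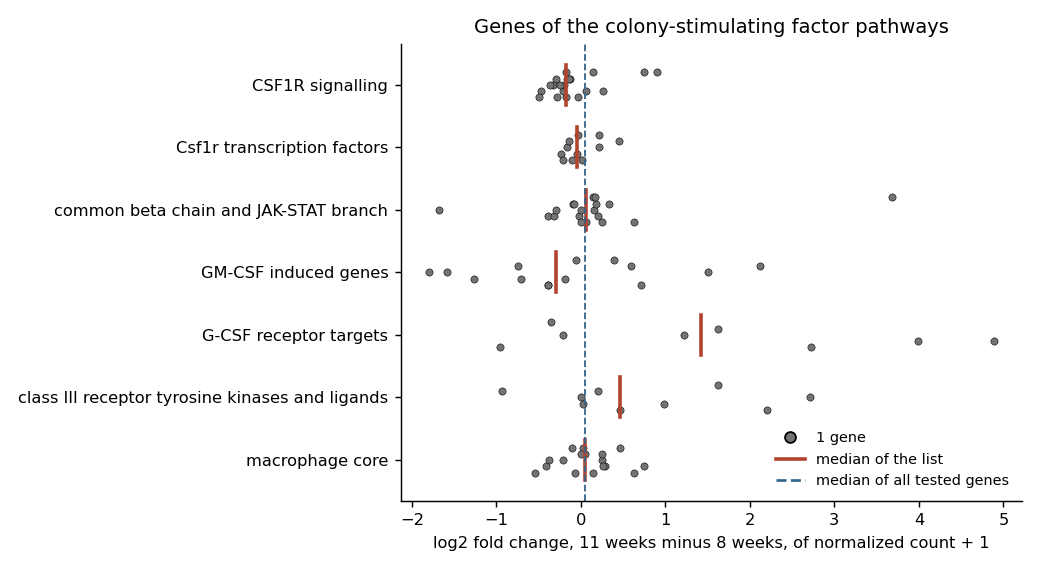
Log2 fold changes, 11 weeks minus 8 weeks, of log2(normalized count + 1) (horizontal axis) for genes of 6 lists around the colony-stimulating factor receptors and of the macrophage core. Each point is 1 gene, red bars are list medians and the dashed line is the median of all tested genes, 0.05. The median of the CSF1R signalling genes is -0.18, and G-CSF receptor targets spread widely around a median of 1.42.

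In the branch of the common beta chain, 19 of 20 genes were tested, since Il3, the interleukin 3 gene, was at 0 in all 6 libraries. None passed the adjusted test, and 11 had a positive and 8 a negative log2 fold change (median 0.06). The 8 include Il5ra, which was at 0 in every library of 1 age, so that its sign was fixed. An unadjusted p under 0.05 was reached by 1 gene, at a higher level, a share near the background of 4.76%. The 1 gene was Socs1, which encodes a feedback inhibitor of JAK kinases. It had 34.9, 37.3 and 48 normalized counts at 11 weeks, against 2.7, 0 and 7.7 at 8 weeks, with no overlap (limma adjusted p = 0.492). Lyn, a Src-family kinase gene, overlapped at 16321 ± 2076 and 14523 ± 1072 (11 weeks and 8 weeks; SD, n = 3 each; limma adjusted p = 0.821).

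Genes known to be induced by GM-CSF in myeloid cells were split in direction, with 5 positive and 9 negative log2 fold changes. Zbtb46 and Cd209a of this list are also dendritic cell markers. Those markers summed to less in every 11-week library but were split in direction gene by gene. Of the 14 GM-CSF induced genes none passed the adjusted test. An unadjusted p under 0.05 was reached by 2 genes with a higher level and by 3 with a lower one (background 4.76% and 3.27%), and the median was -0.29. Ccl22, which encodes a chemokine that attracts regulatory T cells, had 1148, 1571 and 1901.5 normalized counts at 11 weeks, against 1014, 255 and 161 at 8 weeks (log2 fold change 2.12, limma adjusted p = 0.213). Ear2, an eosinophil-associated ribonuclease gene, had 465, 263 and 443 at 11 weeks and 996, 1327 and 1121 at 8 weeks (log2 fold change -1.59, limma adjusted p = 0.170). In both genes the ages did not overlap, in opposite directions. Of the 14 genes, the ages did not overlap in 2 that were higher and 5 that were lower, where 6.81% and 5.12% of all tested genes were so. Il1rl1, which encodes the IL-33 receptor, was on the side of Ear2, with 268 ± 86.0 normalized counts at 11 weeks, against 630 ± 95.4 at 8 weeks (SD, n = 3 each; limma adjusted p = 0.441). Ccl17, which encodes a chemokine for the same receptor as Ccl22, overlapped at 465 ± 195 and 201 ± 185 (11 weeks and 8 weeks; limma adjusted p = 0.579).

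Of 11 genes known as targets of the G-CSF receptor in granulocytes, 8 were tested and none passed the adjusted test. An unadjusted p under 0.05 was reached by 4 genes with a higher level and 1 with a lower one (background 4.76% and 3.27%), and the median was 1.42. S100a9, a calprotectin subunit gene, had 1192, 1522 and 1051 normalized counts at 11 weeks, against 146, 137 and 2.6 at 8 weeks (limma adjusted p = 0.175). Cxcr2, a chemokine receptor gene of neutrophils, had 341, 900.2 and 432 at 11 weeks and 82.9, 90.0 and 3.4 at 8 weeks (limma adjusted p = 0.213). In both, every 11-week library lay above every 8-week library. Mmp9, which encodes gelatinase B, lay the other way with 577 ± 98.2 at 11 weeks and 1120.3 ± 157 at 8 weeks (SD, n = 3 each; limma adjusted p = 0.442). Several of these targets, S100a9 and Cxcr2 included, are also among the neutrophil markers, so this list is no separate reading.

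The genes with the profile most like that of Csf1r were sought among 9729 protein-coding genes, by the root mean square difference of log2 levels centred on each gene's mean over the 6 libraries. The nearest was Kdm7a, a histone demethylase gene, with a difference of 0.0425, beside a spread of Csf1r about its own mean of 0.145. Fau at 0.0513, Arf4 at 0.0516, Ppp6r1 at 0.0592 and Nfam1 at 0.0607 followed. Kdm7a had 9188, 8541.5 and 7775 normalized counts at 11 weeks, against 9469, 10045 and 10295 at 8 weeks, so that it too was lower in every 11-week library. The nearest to Csf1 was Eif2d, with a difference of 0.451, beside a spread of Csf1 about its own mean of 1.58. The nearest to Csf2ra was Pak4 (0.0578), the nearest to Csf2rb2 was Pik3cb (0.0460) and the nearest to Csf3r was Renbp (0.0807). With 6 libraries and this many genes, these are descriptions of likeness in these samples only.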

How the data were processed

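RNA was extracted from sorted mammary macrophages and made into libraries with a Nugen Ovation plus Nextera low-input protocol, per the labels' protocols. STAR 2.4, DESeq2 1.6 and GRCm38 are named, without their roles, in the submitters' processing notes. The counter, and any use of strand, are not given in the sources. The deposited table holds 1 signal value per gene and library. These values, called normalized counts here, are whole multiples of 1 number per library, that is, counts scaled by a size factor. Whole reads came back (tolerance 0.05 normalized counts) for 99.8% or more of the nonzero values of every library. In 11-week replicate 2 a read is worth 1.008 normalized counts, so close to 1 that whole reads are hard to tell from the values themselves there. The deposited table also carries the authors' own log2 fold change, fold ratio, p-value and adjusted p-value, read as given. How their fold changes were computed is not stated in the sources. They need not be on the same scale as those computed here.

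Columns were matched to samples by age and number. Libraries of one age differed by far more than counting noise (chi-square per degree of freedom 125.61 to 359.14), so none was counted as a repeat. The main test was limma 3.58.1 with trended, robust moderation, on log2(normalized count + 1), in R 4.3.3, with age as the only term, for genes with a mean of at least 1 in either age, with Benjamini-Hochberg adjustment and a threshold of 0.05. A log2 fold change is the 11-week mean of log2(value + 1) less the 8-week mean. The added 1 shrinks the change of low genes. A mean of logs also gives a library near 0 much weight, so the result can exceed or reverse the change of the plain means. Kdr, an endothelial marker, had means of 136 at 11 weeks and 53.2 at 8 weeks, but a log2 fold change of -1.40. Within-library ratios used an exact two-sided permutation test (scipy 1.17.1). Lengths and sequences came from the GENCODE annotation of GRCm38, where 42548 of the 43432 gene IDs had an exon length, as did 9 of 9 members, and coding sequences were aligned with Biopython 1.88. Alternatives were edgeR 4.0.16, DESeq2 1.42.0 and limma-voom on the recovered reads, other scalings, filters and pseudocounts, a replicate block and leaving out each library. The limma, edgeR, DESeq2 and limma-voom fits were first tested on simulated counts.

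The 9 genes and the 17 gene lists were chosen with earlier results of these data known. Named besides the 9 genes were up to 4 genes per list with the smallest p among those averaging at least 8 normalized counts, the sort and macrophage markers, and for genes averaging at least 100 the nearest profiles, with predicted symbols skipped. Not all genes that this rule allows are named. Reads from stretches that overlapping or antisense genes, or near-identical copies, share cannot be told apart.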

Additional observations from a re-analysis of the deposited data

How the results depend on the processing

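None of the 9 genes was called in any of the 19 alternatives, but not all 9 could be called in each. Il34 and Csf2 had no adjusted p with DESeq2 and were not tested with a minimum mean of 10. The number of genes called over the whole table was 11 with limma, 8 higher and 3 lower, and moved to 418 with DESeq2 (2.63% of the genes it adjusted), 27 with limma-voom, 4 with library totals as scaling, 5 with a pseudocount of 8, 0 without trend and robust moderation (1361 genes at an unadjusted p under 0.05) and 45 with the replicate block. With edgeR it was 14 (0.0646%). Leaving out 1 library at a time gave 0 to 8 calls. It was 8 only when 11-week replicate 2 was dropped, 1 when 8-week replicate 2 or 3 was, and 0 when any other single library was. Fewer samples enter these fits. For the other settings the cause was not tested.

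Same-numbered libraries of the ages did not deviate together, with correlations of -0.0378, -0.00582 and -0.0308 over 15732 genes. The numbers were therefore not taken as pairs, and the replicate block changed no call of the 9 genes.

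The log2 fold changes of Csf1r, Csf1, Csf2ra, Csf2rb and Csf3 kept their direction in all 19 alternatives. Without 8-week replicate 3, that of Csf2rb2 reversed to -0.028 and that of Csf3r to -0.24, the low ends of ranges over left-out libraries that reached 0.30 and 0.37. The ratio of Csf2ra to Csf2rb, -0.09 on the log2 scale, reversed to 0.02 without 11-week replicate 1 and to 0.0866 without 8-week replicate 3, and ran from -0.30 to 0.09 over the left-out libraries. The causes were not tested. Scaling by library totals moved the median log2 fold change of all tested genes to -0.03, from 0.05 with the deposited scaling. Depth limits Il34, Csf2 and Csf3, which rest on 0 to 126 reads per library.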
